A study of Mus musculus with 6 samples.

Results

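This account covers 10 mouse genes that encode regulators of transcription or chromatin and that have been reported as targets of the microRNA miR-9: Foxo1, Foxo3, Rest, Rcor1, Hmga2, Klf5, Bcl6, Hes1, Creb1 and Sirt1. They were taken by gene name from a table of 56448 genes, each name matched 1 row, and all 10 passed the filter of a mean over the libraries of at least 1 TPM (transcript abundance scaled for message length and library total), so that all 10 were among the 13406 genes tested. Messenger RNA had been sequenced from 4T1, a cultured mouse mammary tumour line, in 3 libraries labelled LV2 and 3 labelled in9. The series concerns stable lentiviral knockdown of miR-9 against a control, but neither name is spelled out, and which group is the control is not stated, so each difference is given as in9 minus LV2. All 6 libraries carry the same cell line label; whether the infected cells were a pool or 1 clone, and whether the replicates were separate cultures, is not stated, so p-values here speak for the variation among these libraries, which could be technical.

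A microRNA guides a silencing complex to messenger RNAs that pair with its seed, the short stretch near its 5′ end, and the paired messages are usually destabilised and less translated. Reported targets are therefore genes whose message or protein has been seen to fall with miR-9, or to rise when it is inhibited, in some cell type. The microRNA itself is best known from the nervous system, where it balances proliferation and differentiation of progenitors, and it has also been studied as a regulator of invasion in breast cancer. Regulators of transcription form a recurrent group among its reported targets, and those below belong to several pathways: REST and its corepressor RCOR1 silence neuronal genes outside neurons, HES1 carries Notch signals, and SIRT1 deacetylates FOXO proteins.

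The sequences that tie these genes to miR-9 are shown first. Mature miR-9-5p is the same in the 3 mouse hairpins Mir9-1, Mir9-2 and Mir9-3, and is given from RefSeq (GRCm38.p6) with the seed, bases 2 to 8, in capitals.
miR-9-5p: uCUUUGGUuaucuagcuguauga

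For each gene the transcript strand of its longest 3′ UTR (GENCODE M21, GRCm38, the build that the series calls mm10) was searched for ACCAAAG, which pairs with bases 2 to 8, for CCAAAGA, which pairs with bases 2 to 7 and has an A opposite base 1, and for ACCAAAGA, which joins both. All 10 genes held at least 1 match, and Rest held 2. Among the 10952 tested genes with an annotated 3′ UTR, 22.2% held a match. Since the genes were listed as reported targets, a match in each of them is not a finding. In the sites below the match is in capitals, with the 15 bases on its 5′ side and, for matches without the A, the base opposite base 1 of miR-9-5p. They are shown because the kind of match differs from gene to gene.
Foxo3: aacctgataccttgtACCAAAGA
Hmga2: aaatctgcttaggacACCAAAGA
Sirt1: gaacagcttatctagACCAAAGA
Bcl6: gctttaatttttttaACCAAAGg
Rest, first: gaattgactgggaggCCAAAGA
Rest, second: acttttctgaggcaaACCAAAGg
Foxo1: gaactgaggagcagtCCAAAGA
Rcor1: aaagtttattgcttgCCAAAGA
Klf5: atgaacagaataaatCCAAAGA
Hes1: tttttttatgtgatgCCAAAGA
Creb1: acgtatctattattgCCAAAGA

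The 8-base match was present in 3 of the 10 genes, at chr10:42183349-42183356 in Foxo3, chr10:120363747-120363754 in Hmga2 and chr10:63320284-63320291 in Sirt1, each on the minus strand. An 8-base match was held by 4.58% of the tested genes with an annotated 3′ UTR. The match of Bcl6 lay at chr16:23965677-23965683 (minus strand), and those of Rest at chr5:77284746-77284752 and chr5:77286176-77286182 (plus strand). On the plus strand too were the matches of Foxo1 (chr3:52347048-52347054), Rcor1 (chr12:111112847-111112853), Klf5 (chr14:99304862-99304868), Hes1 (chr16:30067712-30067718) and Creb1 (chr1:64603496-64603502). All lie in 3′ UTRs, whose length ran from 368 bases in Hes1 to 7170 bases in Creb1, against a median of 1167 bases over the tested genes.

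**Figure D1:**
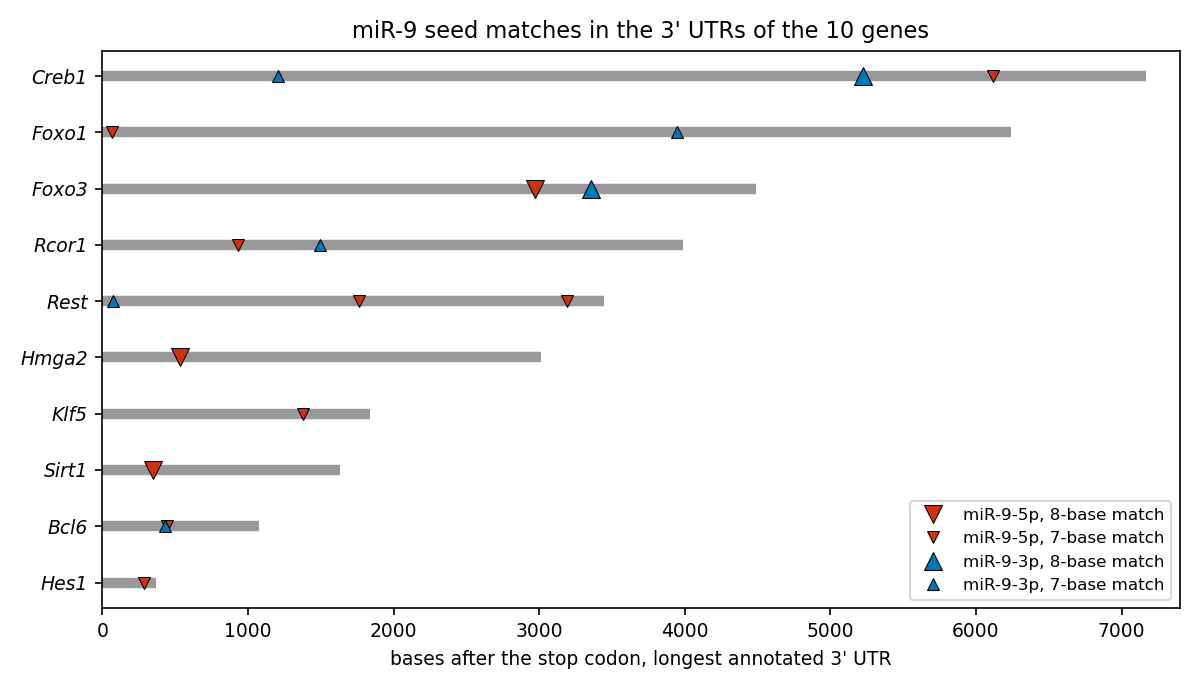
The 3′ UTR of each gene as a grey bar, from the stop codon (0 on the horizontal axis, in bases) to its annotated end, with matches to the miR-9-5p seed as red triangles and to the miR-9-3p seed as blue ones; large triangles are 8-base matches. The miR-9-5p match of Foxo1 starts 67 bases after the stop codon, and that of Creb1 lies 6118 bases after it.

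The place of the site relative to the annotated transcripts matters for 3 genes. For Klf5 the longest 3′ UTR belongs to transcript Klf5-202, while the length given in the deposited table, 3352 bases, is that of Klf5-201, which ends in another 3′ UTR of 1707 bases with 2 matches to bases 2 to 8, at chr14:99313511-99313517 and chr14:99314584-99314590.
Klf5-201, first: atacattgtatcaatACCAAAGt
Klf5-201, second: acatggatgctgttaACCAAAGg
For Creb1 the length given is 1260 bases, that of transcript Creb1-209, whose 3′ UTR of 99 bases has no match, and 1 of the 6 coding transcripts with a 3′ UTR, Creb1-202, holds the site. For Foxo3 the site is in 1 of 4 such transcripts, Foxo3-203, whose 6848 bases are the length given in the table. The table has 1 value per gene, so transcripts with and without the site cannot be told apart. The length given for Creb1 is far under that of its longest coding transcript (8364 bases), and whether its TPM was scaled to the length given is not known.

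The libraries differ in ways that touch these genes. On the leading principal component of the tested genes, in9 replicate 1 had a score of -2.70 and the remaining in9 libraries 26.1 and 27.8, while LV2 replicate 1 had -6.98 and the remaining LV2 libraries -22.0 and -22.2. Mitochondrial transcripts held 5.90% to 6.01% of all TPM across LV2, 6.42% in in9 replicate 1, and 7.64% and 7.49% in in9 replicates 2 and 3. Genes with a length of at least 5000 bases (1940 tested) had a median deviation from the LV2 mean of 0.17 and 0.19 on the log2(TPM + 1) scale in in9 replicates 2 and 3, but of -0.04 in in9 replicate 1 and of 0.08, -0.01 and -0.07 in the LV2 libraries, and genes under 1000 bases (2226 tested) of -0.03 and -0.06 in in9 replicates 2 and 3 and 0.01 in in9 replicate 1. Markers of epithelial cells summed to 2150 to 2168 TPM across LV2 and 2045 to 2079 TPM across in9, with Krt8 and Krt18 carrying most of it and Krt5 at or near 0, so epithelial markers were present in every library. Of the 6 epithelial markers tested, 1 (Cdh1) was higher and 2 (Krt8 and Epcam) were lower by unadjusted p under 0.05, and limma called none. Epcam, an epithelial adhesion gene, was at 43.85 to 47.65 TPM across LV2 and 35.87 to 38.11 TPM across in9 (log2 fold change -0.30 ± 0.05 SE, adjusted p = 0.0633), and was called lower without in9 replicate 1 (-0.33, adjusted p = 0.0281). Of 5 leukocyte markers, Ptprc, Cd3e, Adgre1 and Itgam were at or near 0, and Cd68, a lysosomal gene, made nearly all of a sum of 27.6 to 28.9 TPM across LV2 and 33.7 to 40.6 TPM across in9 (Cd68 was called higher without in9 replicate 1, adjusted p = 0.0134). Among 4 fibroblast markers Thy1, Dcn and Lum were at or near 0 and Pdgfra made nearly all of a sum of 4.56 to 6.58 TPM across LV2 and 7.75 to 8.31 TPM across in9, and the 3 endothelial markers summed to 1.71 to 2.17 TPM over all libraries. TPM keep no record of depth, so the number of reads behind each value is unknown, and in bulk samples fewer cells of a type cannot be told apart from less RNA per cell.

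None of the 10 genes was called different between in9 and LV2 at an adjusted p under 0.05 in limma, where 1.01% of all tested genes were called (0.821% higher, 110 genes, and 0.194% lower, 26 genes; 46 and 25 genes after trimmed-mean scaling). Nor was any of the 10 called without in9 replicate 1, where 7.25% of tested genes were higher and 3.8% lower (971 and 509 genes), or without any of the other 5 libraries, where 6 to 10 genes were higher and 1 to 4 lower. An unadjusted p under 0.05 was reached by 3 of the 10 (Foxo3, Bcl6 and Hmga2), all higher, where 13.6% of all tested genes were higher and 5.86% lower on that rule. After trimmed-mean scaling 1 of the 10 (Foxo3, higher) reached it, where 1147 of the 13406 tested genes were higher and 1466 lower. A positive log2 fold change was seen for 8 of the 10 (7 after trimmed-mean scaling). Over all tested genes it was seen for 63.7% (8543 of 13406, and 6457 of 13406 after trimmed-mean scaling). The median over the 10 was 0.15 (0.08 after trimmed-mean scaling), against 0.06 (-0.01) over all tested genes. The in9 and LV2 libraries did not overlap for 2 of the 10, Foxo3 and Bcl6, both higher in in9, where 17.4% of all tested genes had in9 wholly above LV2 and 8.08% wholly below. Values for each gene follow.

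**Figure D2:**
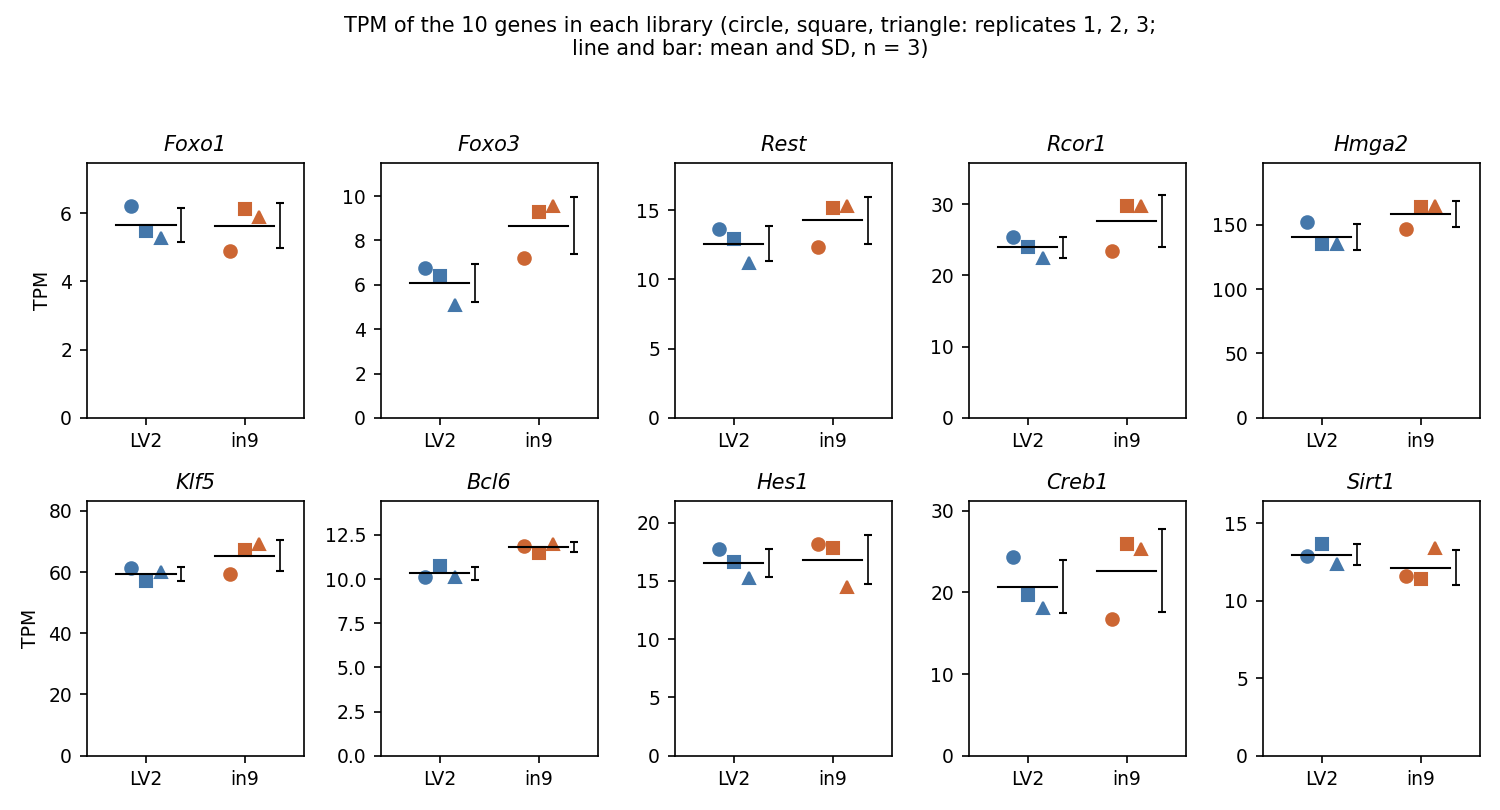
TPM of each gene (vertical axis from 0, one panel per gene) in the 3 LV2 libraries (blue) and the 3 in9 libraries (orange), with the mean as a line and the SD as a bar (n = 3). In Foxo3 and Bcl6 every in9 library is above every LV2 library, while in Rcor1, Rest and Creb1 in9 replicate 1 (circle) sits within or under the LV2 range.

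Foxo1 and Foxo3 encode forkhead transcription factors that are kept out of the nucleus by AKT and that, when active, drive genes of cell-cycle arrest, apoptosis and stress resistance. Foxo3 had a TPM of 6.75, 6.38 and 5.10 in LV2 and of 7.19, 9.26 and 9.56 in in9. Every in9 library was above every LV2 library, with in9 replicate 1 closest to LV2. The mean in9 level was 1.43-fold that of LV2 (6.08 ± 0.866 against 8.67 ± 1.29 TPM, SD, n = 3). On the log2(TPM + 1) scale the difference was 0.45 ± 0.14 (SE; 95% interval 0.10 to 0.80), the largest of the 10 genes, with an unadjusted p of 0.0186 and an adjusted p of 0.172 in limma. Over the 14 alternatives run its adjusted p lay between 0.0524, without in9 replicate 1, and 0.399. Foxo1 (chr3:52268336-52353221) is the less abundant of the pair, at 6.22, 5.47 and 5.28 TPM across LV2 and 4.89, 6.13 and 5.89 TPM across in9. Its groups overlapped, with in9 replicate 1 the lowest and LV2 replicate 1 the highest of the 6 libraries. The log2 fold change was -0.01 (95% interval -0.29 to 0.28, adjusted p = 0.982), so the interval runs from 0.818-fold to 1.21-fold. The log2 value was -0.13 with quantile normalization and -0.07 with trimmed-mean scaling, and its sign turned without in9 replicate 1 (0.08) and without LV2 replicate 1 (0.05).

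Genes of the FOXO family, Foxo1 and Foxo3 included, and genes known to be driven by FOXO factors were looked at as a list. Of the 18 tested of 20 listed, 17 were on the positive side (14 after trimmed-mean scaling) with a median log2 fold change of 0.25, and limma called none. By unadjusted p (under 0.05, here and for the lists below) 9 were higher and none lower, Foxo3 itself among them (7 higher after trimmed-mean scaling). Over all tested genes 13.6% were higher and 5.86% lower on that rule, 63.7% were positive, and the median was 0.06. In 17.4% of all tested genes in9 lay wholly above LV2. These shares are to be read beside the counts of this and each later list, and no list was tested as a set. Ccng2, an atypical cyclin linked to cell-cycle arrest, was at 33.44, 32.21 and 33.39 TPM across LV2 and at 43.38, 57.83 and 55.38 TPM across in9 (log2 fold change 0.63 ± 0.11 SE, adjusted p = 0.0576). Bcl2l11, which encodes the pro-apoptotic BCL2 family protein BIM, was at 23.80, 23.85 and 24.36 TPM across LV2 and at 29.90, 31.37 and 33.91 TPM across in9 (0.39 ± 0.06, adjusted p = 0.0544). For both genes the groups did not overlap. Both passed the threshold without in9 replicate 1 (adjusted p = 0.0046 and 0.0193 in limma) and when the filter was raised to a mean TPM of 5 (0.0462 and 0.0431), and neither did under the other alternatives, where the adjusted p of each reached 0.234 (0.0560 and 0.0700 after trimmed-mean scaling). Pik3ip1, a negative regulator of PI3 kinase, was at 1.46 to 2.11 TPM across LV2 and 2.82 to 4.08 TPM across in9 (0.72 ± 0.17, adjusted p = 0.107). Foxo4, a paralogue of Foxo1 and Foxo3, was at 5.24 to 7.24 TPM across LV2 and 8.53 to 9.58 TPM across in9, without overlap (0.49 ± 0.12, adjusted p = 0.116). The longest 3′ UTR of Bcl2l11 held an 8-base miR-9-5p match of its own, and those of Ccng2, Pik3ip1 and Foxo4 held no match.

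Rest encodes the zinc finger repressor that binds RE1 elements, and Rcor1 the scaffold, also called CoREST, that brings the demethylase KDM1A and the deacetylases HDAC1 and HDAC2 to it. Rest had a TPM of 13.64, 12.95 and 11.16 in LV2 and of 12.34, 15.16 and 15.32 in in9. In9 replicates 2 and 3 were above all LV2 libraries, and in9 replicate 1 lay inside the LV2 range. The log2 fold change was 0.17 ± 0.11 (SE; 95% interval -0.11 to 0.44, adjusted p = 0.458), and it was 0.26 without in9 replicate 1 (adjusted p = 0.145), 0.08 with quantile normalization (0.655) and 0.10 with trimmed-mean scaling (0.585). Rcor1 was at 25.43, 24.00 and 22.48 TPM across LV2 and 23.48, 29.79 and 29.71 TPM across in9. Again in9 replicate 1 fell among the LV2 libraries and the other in9 libraries above them. Its log2 fold change was 0.19 ± 0.11 (95% interval -0.06 to 0.45, adjusted p = 0.367), and without in9 replicate 1 it was 0.30 with an adjusted p of 0.0502, just outside the threshold in limma. After trimmed-mean scaling it was 0.12 (adjusted p = 0.460), and the highest adjusted p over the alternatives was 0.668.

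Genes of the REST and CoREST complexes, Rest and Rcor1 included, were detected throughout: all 16 listed genes were tested, and 15 were on the positive side (11 after trimmed-mean scaling). The median log2 fold change was 0.16, and limma called none of the 16. By unadjusted p 5 were higher and 1 lower (4 and 1 after trimmed-mean scaling). Hmg20b, a subunit of the CoREST complex, was at 49.39 to 56.46 TPM across LV2 and 60.24 to 65.30 TPM across in9 (0.25 ± 0.07 SE, adjusted p = 0.126). Ehmt2, the histone methyltransferase G9a, was at 71.74 to 78.12 TPM across LV2 and 81.05 to 90.16 TPM across in9 (0.22 ± 0.06, adjusted p = 0.134). Rcor3, a paralogue of Rcor1, was at 11.87 to 12.16 TPM across LV2 and 13.46 to 16.09 TPM across in9 (0.30 ± 0.08, adjusted p = 0.138). Rcor2, the other paralogue, was at 24.13 to 24.97 TPM across LV2 and 26.22 to 30.50 TPM across in9 (0.18 ± 0.07, adjusted p = 0.245). In each of these 4 genes the groups did not overlap. The remaining 2 behind the unadjusted counts were Sin3a (0.31, adjusted p = 0.190) and Sin3b (-0.13, 0.232), which encode SIN3 corepressor scaffolds. Without in9 replicate 1, Sin3a (0.41) and Ehmt2 (0.27) were called higher and Sin3b (-0.18) lower. The longest 3′ UTRs of Rcor3 and Sin3a held a miR-9-5p match, and those of Hmg20b, Ehmt2, Rcor2 and Sin3b held none.

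Neuronal genes known to be repressed by REST were mostly near the floor. Of 20 listed, 16 had a mean TPM under 1, 15 stayed under 0.5 TPM in every library, and 6 (Snap25, Stmn2, Stmn3, Scg3, Chga and Gria2) were listed at 0 in all libraries. The remaining 4 were tested, and limma called none (1 higher and 0 lower by unadjusted p). That 1 was Bdnf, a neurotrophin gene, at 2.76, 2.54 and 2.73 TPM across LV2 and 3.61, 3.46 and 4.66 TPM across in9 (0.41 ± 0.14 SE, adjusted p = 0.189). L1cam, a neural adhesion gene and the most abundant of the list, was at 10.00 to 12.51 TPM across LV2 and 10.51 to 12.77 TPM across in9. Unc13a, a synaptic vesicle priming factor, was at 2.02 to 3.00 TPM across LV2 and 3.00 to 4.04 TPM across in9, and Vgf, a secreted neuropeptide precursor, at 1.77 to 2.08 and 1.36 to 2.14 TPM.

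Hmga2, an AT-hook protein that bends DNA and is mostly silent in adult tissue but high in embryos and many tumours, was the most abundant of the 10 genes. It had a TPM of 151.79, 134.80 and 134.73 in LV2 and of 146.43, 163.49 and 164.57 in in9. LV2 replicate 1 lay above in9 replicate 1, so the groups overlapped. The means differed by 12.6% (140 ± 9.83 against 158 ± 10.2 TPM, SD, n = 3). The log2 fold change was 0.17 ± 0.07 (SE; 95% interval 0.00 to 0.34), with p-values of 0.0484 unadjusted and 0.253 adjusted, and trimmed-mean scaling brought it to 0.10 (adjusted p = 0.351). Of the 7 listed HMGA, LIN28 and IGF2BP genes, Hmga2 included, 4 were tested, all on the positive side (median log2 fold change 0.17, 3 positive after trimmed-mean scaling). Limma called none of them, and 3, Hmga2 itself among them, were higher by unadjusted p (1 after trimmed-mean scaling). Its paralogue Hmga1, which has processed copies in the genome that may share its reads, was at 420.69 to 440.25 TPM across LV2 and 472.36 to 505.98 TPM across in9 (0.18 ± 0.04, adjusted p = 0.109), and Igf2bp2, an RNA-binding protein gene known to be raised by HMGA2, at 58.57 to 61.03 and 64.83 to 74.90 TPM (0.25 ± 0.07, adjusted p = 0.124). Both were called higher without in9 replicate 1. Both also held miR-9-5p matches of their own, 2 of 7 bases in Hmga1 and an 8-base match in Igf2bp2.

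Klf5, a Kruppel-like zinc finger factor of proliferating epithelium, had a TPM of 61.27, 56.99 and 59.89 in LV2 and of 59.52, 67.24 and 69.31 in in9. As in Rest, Rcor1 and Hmga2, in9 replicate 1 was inside the LV2 range and the other in9 libraries were above it. In limma the log2 fold change was 0.13 ± 0.07 (SE; 95% interval -0.03 to 0.30, adjusted p = 0.343), 0.20 without in9 replicate 1 (adjusted p = 0.0614) and 0.06 after trimmed-mean scaling (0.570). All 10 tested Kruppel-like factor genes of 15 listed were on the positive side, with a median log2 fold change of 0.20 (8 were positive after trimmed-mean scaling). Limma called none of them, and 5 were higher by unadjusted p (4 after trimmed-mean scaling). Klf7 was at 7.35, 6.81 and 6.78 TPM across LV2 and 9.50, 12.61 and 13.01 TPM across in9 (0.66 ± 0.13, adjusted p = 0.0692), Klf3 at 17.17 to 21.64 and 24.35 to 26.71 TPM (0.42 ± 0.10, adjusted p = 0.0961) and Klf11 at 5.86 to 6.75 and 7.45 to 9.35 TPM (0.35 ± 0.11, adjusted p = 0.158). The other two were Klf9 at 11.31 to 13.68 and 14.09 to 17.12 TPM (0.30 ± 0.10, adjusted p = 0.197) and Klf4 at 7.65 to 8.34 and 8.86 to 10.59 TPM (0.25 ± 0.09, adjusted p = 0.224). Klf7 and Klf3 were called higher without in9 replicate 1 (adjusted p = 0.0121 and 0.0495). The longest 3′ UTR of Klf7 held 3 miR-9-5p matches of its own, and those of Klf3, Klf11, Klf9 and Klf4 held none.

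Bcl6 encodes a BTB zinc finger repressor best known from germinal centre B cells, where it recruits NCOR and BCOR corepressors. Its TPM was 10.14, 10.77 and 10.11 in LV2 and 11.90, 11.49 and 12.01 in in9. The groups did not overlap, and in9 replicate 1 was as high as the other in9 libraries, unlike in Rest, Rcor1, Hmga2 and Klf5. The spread within groups was the smallest of the 10 genes in TPM, at an SD of 0.373 in LV2 and 0.274 in in9. This gave a log2 fold change of 0.18 ± 0.07 (SE; 95% interval 0.01 to 0.34, unadjusted p = 0.0436, adjusted p = 0.243), and it was 0.11 after trimmed-mean scaling (adjusted p = 0.445) and 0.07 after quantile normalization (0.621). Among 8 tested of 9 listed genes of BCL6 and its corepressors, 6 were on the positive side (4 after trimmed-mean scaling). Their median log2 fold change was 0.07. Limma called none, and Bcl6 was the 1 gene higher by unadjusted p (0 after trimmed-mean scaling). The corepressor genes Ncor1 (39.94 to 42.08 TPM across LV2, 39.96 to 53.65 TPM across in9) and Bcorl1 (8.69 to 11.06 and 10.46 to 12.02 TPM) overlapped between groups.

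Hes1, a basic helix-loop-helix repressor induced by Notch that also represses its own gene, had a TPM of 17.71, 16.62 and 15.29 in LV2 and of 18.20, 17.84 and 14.46 in in9. The lowest and the highest of the 6 libraries were both in9. The difference on the log2 scale was 0.02 ± 0.11 (SE; 95% interval -0.24 to 0.27, adjusted p = 0.937), and its sign turned after trimmed-mean scaling (-0.05), after quantile normalization (-0.06) and without in9 replicate 1 (-0.04), in9 replicate 2 (-0.02) or LV2 replicate 3 (-0.03). Of 14 tested of 20 listed Notch pathway genes, 10 were on the positive side (7 after trimmed-mean scaling). Their median log2 fold change was 0.09. Limma called none, and 4 were higher and 1 lower by unadjusted p (1 higher and 2 lower after trimmed-mean scaling). Hes6, a relative that counteracts HES1, was at 6.77 to 7.29 TPM across LV2 and 8.99 to 10.95 TPM across in9 (0.43 ± 0.10, adjusted p = 0.0968). The ligand gene Jag1 was at 13.38, 14.01 and 12.12 TPM across LV2 and 11.72, 10.44 and 10.20 TPM across in9 (-0.27 ± 0.09, adjusted p = 0.187). Rbpj, the DNA-binding partner of the cleaved Notch receptor, was at 52.26 to 54.46 and 55.82 to 64.58 TPM (0.19 ± 0.07, adjusted p = 0.201), and was called higher without in9 replicate 1 (adjusted p = 0.0284). The receptor gene Notch2 was at 12.00 to 14.29 and 14.05 to 18.26 TPM (0.28 ± 0.11, adjusted p = 0.245), and the ligand gene Dll4 at 2.72 to 4.36 and 4.33 to 4.98 TPM (0.40 ± 0.17, adjusted p = 0.254), both with overlap between groups.

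Creb1 encodes the transcription factor that binds cyclic AMP response elements and is activated by protein kinase A. Its TPM was 24.38, 19.68 and 18.09 in LV2 and 16.77, 25.99 and 25.27 in in9. Its standard error was the largest of the 10 genes: in9 replicate 1 was the lowest of all libraries and the other in9 libraries were the highest. In limma the difference was 0.11 ± 0.19 (SE; 95% interval -0.34 to 0.56, adjusted p = 0.773), 0.30 without in9 replicate 1 (adjusted p = 0.174), 0.00 without in9 replicate 2 and 0.04 after trimmed-mean scaling (0.915). Of 16 tested of 17 listed genes of the CREB family, its coactivators and its known targets, 15 were on the positive side. That number was 9 with quantile normalization and 12 with trimmed-mean scaling. The median log2 fold change was 0.11. Limma called none, and 2 were higher by unadjusted p (1 after trimmed-mean scaling). Those 2 were the phosphatase gene Dusp1 (12.40 to 12.98 TPM across LV2 and 15.22 to 17.24 TPM across in9, 0.32 ± 0.07, adjusted p = 0.0996) and the coactivator gene Crtc2 (43.69 to 50.46 and 50.09 to 53.43 TPM, 0.18 ± 0.07, adjusted p = 0.235). The close relatives Crem (8.58 to 12.74 and 8.87 to 11.65 TPM) and Atf1 (35.80 to 40.14 and 34.82 to 44.19 TPM) overlapped between groups, with log2 fold changes of -0.01 and 0.01.

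Sirt1, the NAD-dependent deacetylase that acts on histones, p53 and FOXO proteins, was the 1 gene of the 10 whose log2 fold change was below 0 under every alternative run. Its TPM was 12.86, 13.69 and 12.40 in LV2 and 11.62, 11.41 and 13.41 in in9. In9 replicates 1 and 2 lay under all LV2 libraries and in9 replicate 3 inside their range. In limma the log2 fold change was -0.09 ± 0.09 (SE; 95% interval -0.30 to 0.12, adjusted p = 0.594), and -0.16 after trimmed-mean scaling (adjusted p = 0.319). The means differed by -6.44%, which is within the spread of in9 (SD 1.10 TPM, n = 3). Of 10 genes of sirtuins and NAD supply, all tested, 8 were on the positive side (5 with quantile normalization, 7 with trimmed-mean scaling). Their median log2 fold change was 0.15. Limma called none, and 3 were higher by unadjusted p (0 higher and 1 lower after trimmed-mean scaling). Those 3 were Sirt2 (26.25 to 27.37 TPM across LV2 and 29.46 to 31.28 TPM across in9, adjusted p = 0.144), Sirt7 (36.89 to 42.71 and 44.37 to 47.98 TPM, adjusted p = 0.148) and Sirt3 (5.48 to 6.06 and 6.71 to 7.73 TPM, adjusted p = 0.23). The levels of Sirt4 (6.81 to 9.30 and 7.15 to 13.63 TPM), Sirt5 (7.20 to 14.64 and 7.22 to 13.74 TPM) and Sirt6 (21.56 to 24.19 and 17.92 to 23.49 TPM) overlapped between groups. Nampt, the rate-limiting enzyme of NAD salvage, was at 56.83 to 57.60 TPM across LV2 and at 57.91, 69.44 and 69.61 TPM across in9, and was called higher without in9 replicate 1 (adjusted p = 0.02).

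**Figure D3:**
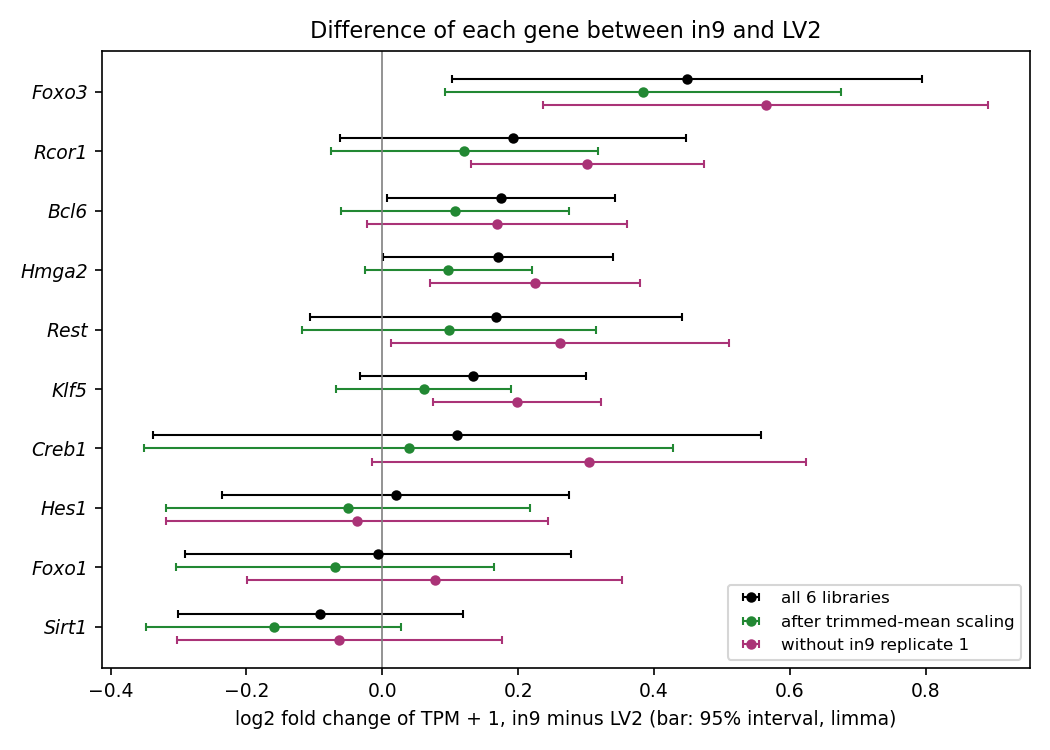
Log2 fold change of each gene on the log2(TPM + 1) scale, in9 minus LV2 (horizontal axis), with its 95% interval from limma for all 6 libraries (black), after trimmed-mean scaling (green) and without in9 replicate 1 (purple). With all libraries the intervals of Foxo3 (0.10 to 0.80), Bcl6 (0.01 to 0.34) and Hmga2 (0.00 to 0.34) lie above 0 before adjustment, and those of the other 7 genes include it. After trimmed-mean scaling the interval of Foxo3 (0.09 to 0.68) lies above 0, and those of Bcl6 (-0.06 to 0.27) and Hmga2 (-0.03 to 0.22) include it.

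Compared with each other per unit of length, the 10 genes ran from Hmga2 (mean 149 TPM over the 6 libraries, 1011th of the tested genes by mean TPM) through Klf5 (62.4) and Rcor1 (25.8) to Foxo3 (7.37) and Foxo1 (5.65). The ranges of Hmga2, Klf5 and Rcor1 did not overlap. From Rcor1 down through Creb1 (21.7), Hes1 (16.7), Rest (13.4), Sirt1 (12.6) and Bcl6 (11.1) each neighbouring pair overlapped in range over the libraries. Bcl6 was above Foxo3 in all 6 libraries without overlap, and Foxo3 was above Foxo1 in 5 of 6. The place of Creb1 in that order may depend on the short length in the table, if its TPM was scaled to that length.

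Library by library, 7 of the 10 genes (all but Foxo1, Hes1 and Sirt1) were above every LV2 library in both in9 replicates 2 and 3. The share of all tested genes that did so was not counted, so the number is not a result about the 10 genes. In in9 replicate 1, 4 of the 7 (Rest, Rcor1, Hmga2 and Klf5) were inside the LV2 range. The median deviation of the 10 genes from the LV2 mean on the log2(TPM + 1) scale was 0.20 and 0.22 in in9 replicates 2 and 3 and -0.01 in in9 replicate 1, and in LV2 it was 0.10, 0.01 and -0.08. The same medians over all tested genes were 0.08 and 0.09, 0.00, and 0.03, -0.01 and -0.03. LV2 replicate 3 held the lowest value of 5 of the 10 genes and in9 replicate 3 the highest of 5, and this too was not counted over all tested genes.

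**Figure D4:**
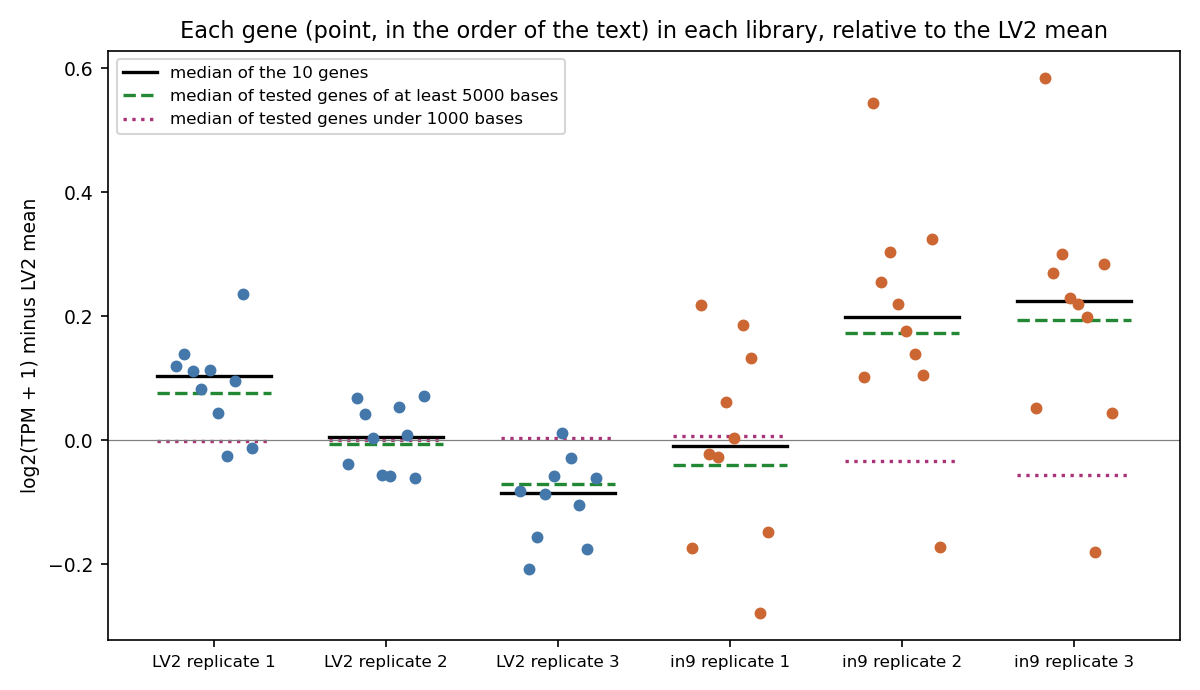
Deviation of each gene from its LV2 mean on the log2(TPM + 1) scale (vertical axis) in each library (horizontal axis); points run from left to right as Foxo1, Foxo3, Rest, Rcor1, Hmga2, Klf5, Bcl6, Hes1, Creb1 and Sirt1. The median of the 10 genes (black) lies near that of tested genes of at least 5000 bases (green, dashed) in each library, at 0.20 against 0.17 in in9 replicate 2 and -0.01 against -0.04 in in9 replicate 1. Only 4 of the 10 genes are of that length, and the part of length was not tested.

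Message length moved with these differences. Over tested genes of at least 5000 bases, which include Foxo1, Foxo3, Rest and Rcor1, the median log2 fold change was 0.11, over the 3412 genes of 3000 to under 5000 bases, which include Hmga2, Klf5, Bcl6 and Sirt1, it was 0.08, and over the 5828 genes of 1000 to under 3000 bases, which include Hes1 and Creb1, 0.04. Under 1000 bases, where none of the 10 falls, it was -0.02. Positive changes made up 79.5%, 71.2%, 60.3% and 47.6% of the genes in these classes. After trimmed-mean scaling the medians were 0.04, 0.01, -0.02 and -0.09. The part of length, of the mitochondrial share and of in9 replicate 1 in the differences of the 10 genes was not tested.

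The seed match was also set against the fold change over all tested genes, as a description with no test. The 2436 genes with a miR-9-5p match had a median log2 fold change of 0.08 and the 8516 without one of 0.06, and their median 3′ UTR lengths were 2345 and 920 bases. Genes called higher in limma made up 0.698% of those with a match and 1.03% of those without. In classes of like 3′ UTR length the medians lay close together: 0.11 with and 0.11 without a match at 4000 bases and over (510 and 346 genes), 0.08 and 0.08 from 2000 to under 4000 bases (906 and 1483 genes), 0.07 and 0.07 from 1000 to under 2000 bases (654 and 2152 genes), 0.05 and 0.05 from 500 to under 1000 bases (240 and 1939 genes), and 0.00 and 0.01 under 500 bases (126 and 2596 genes). The 502 genes with an 8-base match, Foxo3, Hmga2 and Sirt1 among them, had a median of 0.08, as did the 1934 genes with 7-base matches alone. Within the 10 genes the kind of match did not order the changes: the 8-base genes were at 0.45, 0.17 and -0.09, and the 7-base genes between -0.01 and 0.19.

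**Figure D5:**
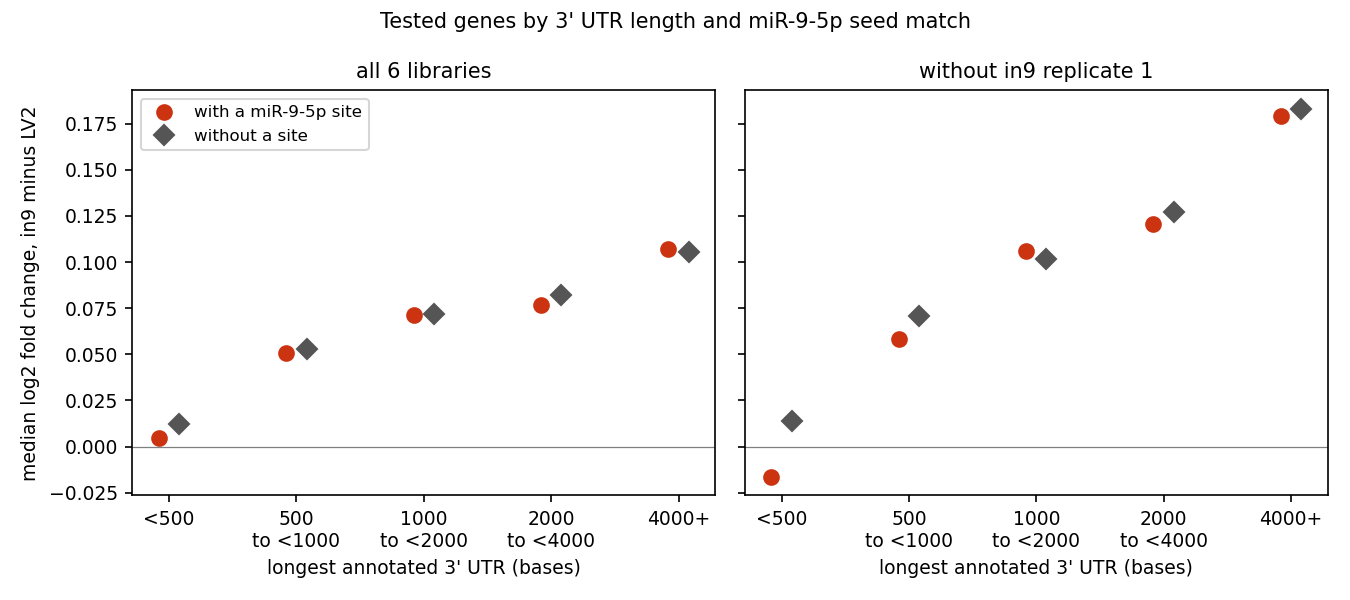
Median log2 fold change (vertical axis) of tested genes by length of the longest annotated 3′ UTR (horizontal axis, classes in bases), for genes with a miR-9-5p seed match (red circles) and without (grey diamonds), with all 6 libraries (left) and without in9 replicate 1 (right). The medians rise with length for both kinds of gene, to 0.11 and 0.11 on the left and 0.18 and 0.18 on the right at 4000 bases and over.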

How the data were processed

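The series holds 6 messenger RNA libraries of 4T1 cells, 3 labelled LV2 and 3 labelled in9. The deposited table gives TPM that the authors computed for 56448 genes, with 1 length per gene and a mean TPM per group, which equalled the mean of the libraries within 3.33e-05. The build was mm10 per the submitters' processing notes; aligner, quantifier and gene models: not given in the sources used here. With no read counts in use, depth and sampling error are unknown, and count models were not applied.

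The 13406 genes whose TPM averaged 1 or more entered a limma fit (version 3.58.1, R 4.3.3) of log2(TPM + 1) with an intensity trend, as in9 minus LV2, two-sided and without a replicate block. Adjustment of p-values (Benjamini-Hochberg) ran over all tested genes, with 0.05 as the threshold for a call. Fold changes on this scale understate those of low genes. The steps were tested on simulated data. Tables were made in python 3.11.15 using numpy 2.4.6 and pandas 2.3.3.

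Seed matches were searched in 3' UTRs built from GENCODE M21 coding transcripts with a stop codon. The 10 genes, the gene lists and the tests were chosen with earlier results of these data known. Named genes were the 10, up to 3 tested genes per list with the smallest unadjusted p, genes behind a count of 5 or fewer, and close relatives (Foxo4, Rcor2, Rcor3, Hmga1, Crem, Atf1 and the other sirtuins). L1cam was named after its values were seen, and Nampt as the 1 gene behind a count. One marker gene is not reported here. As alternatives the pseudocount was set to 0.1, the filter dropped or raised to a mean of 5 TPM, the libraries rescaled by a trimmed mean (30% of M, 5% of A; factors from all genes above 0, a version chosen after results with factors from tested genes had been seen, which are kept as an added alternative) or by quantiles, the trend dropped, the replicate number added as a block, and each library left out in turn; for the sites, 8-base matches alone or any annotated 3' UTR were taken.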

Additional observations from a re-analysis of the deposited data

How the results depend on the processing

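None of the 10 genes was called in limma under any of the 14 alternatives. Of the 140 refitted log2 fold changes of these genes, 132 kept their sign and 8 turned it, those of Hes1 (-0.0502 after trimmed-mean scaling, -0.0435 with its factors taken from tested genes, -0.0604 after quantile normalization, and -0.0372 to 0.12 when 1 library was left out) and Foxo1 (-0.0608 to 0.0770 when 1 library was left out). The cause was not tested. Leaving out 1 library gave 0.35 to 0.56 for Foxo3, 0.09 to 0.26 for Rest, 0.14 to 0.30 for Rcor1, 0.14 to 0.23 for Hmga2, 0.09 to 0.20 for Klf5, 0.16 to 0.20 for Bcl6, 0.00 to 0.30 for Creb1 and -0.16 to -0.05 for Sirt1. The counts over all genes moved far more: from 110 higher and 26 lower to 24 and 6 with no filter, where more genes were tested, 27 and 4 with no intensity trend, 46 higher after trimmed-mean scaling (86 higher and 35 lower with factors from tested genes), 45 lower with a minimum mean TPM of 5, and 6 to 971 higher and 1 to 509 lower when 1 library was left out, the most without in9 replicate 1. With the replicate block 1 gene was higher and 1 lower. Deviations of same-numbered libraries from their group means correlated across genes at -0.10, 0.02 and -0.05, and in9 replicate 1 did not correlate best with LV2 replicate 1. With 3 libraries per group, each centred on its group mean, these values cannot decide whether same-numbered libraries were made together. The FOXO list held 2 higher genes with a minimum mean TPM of 5. When 1 library was left out, 0 to 2 genes were called higher in the FOXO, REST and CoREST, HMGA, Kruppel-like and other reported target lists, 0 to 1 in the Notch and sirtuin lists, and 0 to 1 lower in the REST and CoREST list, each highest count being that without in9 replicate 1. With 8-base matches alone 3 of the 10 genes held a site, and with any annotated 3' UTR 10.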

Other observations

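Other genes reported as miR-9 targets formed a list of 13 that does not include the 10 above. Each held at least 1 miR-9-5p seed match in the longest annotated 3' UTR, where 22.2% of tested genes with an annotated 3' UTR held one. Since these too were listed as reported targets, a match in each of them is not a finding. Of the 13, 6 were tested. None of the 6 was called in limma, 5 had a positive log2 fold change, and 2 were higher and none lower at an unadjusted p under 0.05, with a median of 0.11 against 0.06 over all tested genes. After trimmed-mean scaling 3 of the 6 were positive, and 2 were higher and 1 (Stmn1, -0.18) lower on that rule. The median was then 0.04, against -0.01 over all tested genes. Socs5, a suppressor of cytokine signalling, was at 21.73, 19.60 and 18.88 TPM across LV2 and 22.71, 29.04 and 25.80 TPM across in9, so that the groups did not overlap (log2 fold change 0.35 ± 0.10 SE, adjusted p = 0.151). The E-cadherin gene Cdh1 was at 130.37, 123.23 and 118.18 TPM across LV2 and 129.85, 147.13 and 147.01 TPM across in9, with in9 replicate 1 inside the LV2 range (0.19 ± 0.07, adjusted p = 0.201). Both were called higher without in9 replicate 1 (adjusted p = 0.0404 and 0.0397), and both have a match in 3' UTRs of 2595 and 1631 bases. Stmn1, a microtubule-destabilising protein gene with a shorter 3' UTR of 440 bases, was at 143.19 to 148.63 TPM across LV2 and 131.51 to 144.91 TPM across in9 (-0.11 ± 0.05, adjusted p = 0.313).

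The other strand of the hairpin gives miR-9-3p, and its seed match was present in 6 of the 10 genes (Foxo1, Foxo3, Rest, Rcor1, Bcl6 and Creb1), where 19.4% of tested genes with an annotated 3' UTR held one. All 6 thus had matches to both arms, as did 6.88% of those tested genes, or 753 of the 2436 with a miR-9-5p match. Since all 10 genes held a miR-9-5p match, the number with both arms is to be read beside the 753 of 2436. It is not a finding about the 10 genes. The median 3' UTR of tested genes with a miR-9-3p match was 2477 bases, against 938 bases without, and their median log2 fold changes were 0.08 and 0.06. In Bcl6 the matches to the 2 arms lie close together, starting 427 and 442 bases after the stop codon.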
